A study of Saccharomyces cerevisiae with 18 samples.

Results

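The phosphate response genes described here are 9 genes of budding yeast, PHO5, PHO3, PHO11, PHO12, PHO84, PHO89, PHO8, SPL2 and VTC3, out of 7124 genes in the count table. They were selected by name as genes of the phosphate (PHO) regulon, with PHO5 chosen for its higher level in the A160P variant and PHO84 for its higher level in the early replicates of the hyper-invasive variants. Those contrasts therefore give descriptions of the members and not tests. All 9 genes were found in the table, and all 9 had enough transcripts to enter the fit of 6139 tested genes.

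Budding yeast meets a shortage of inorganic phosphate by turning on the PHO regulon. When phosphate is plentiful, the cyclin and kinase pair Pho80 and Pho85 phosphorylates the transcription factor Pho4, which then leaves the nucleus. When phosphate is scarce, the inhibitor Pho81 blocks the kinase, and Pho4 acts with Pho2 to switch on secreted phosphatases, high-affinity phosphate transporters and the enzymes that store phosphate as polyphosphate in the vacuole.

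The study asked how point changes in Ste12, the transcription factor of mating and invasion, affect where it binds and which genes it regulates. RNA-seq was done on MATα cells of strain BY4705 from which the chromosomal STE12 had been deleted by way of a URA3 replacement, and which carried wild-type STE12 or the A160P, K146D, K150A, K150I, K152L or S158H form on a centromeric LEU2 plasmid. According to the methods, that plasmid held STE12 with its own flanking sequence, although the labels call the expression method overexpression. All 7 genotypes had 5 RNA-seq replicates from exponential phase, 35 libraries in all, where experiment 1 gave replicates 1 and 2 and experiment 2 the remaining 3. The medium and its phosphate content were not given in the sources used here. Of the variants, A160P was mating-defective, K146D and K152L were mating-defective and hyper-invasive, K150A and K150I mated and were hyper-invasive, and S158H mated and was defective in invasion. Binding was measured in 14 calling-card libraries, 2 per genotype, in which each Ste12 form was fused to the PiggyBac transposase and driven by the galactose-inducible GAL1 promoter. Those cells were MATα BY4705 with an intact chromosomal STE12, so each fusion was assayed beside wild-type Ste12, unlike in the RNA-seq cells. The fusions were induced on galactose plates, whereas the medium of the RNA-seq cells was not given. The binding and RNA data thus come from cells that differ in genotype and in how they were grown.

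The RNA-seq libraries held 1039390 to 5481822 unique molecular identifiers (UMIs), each of which marks 1 captured transcript end. Replicates 1 to 3 parted from replicates 4 and 5 in every genotype in an earlier analysis of these data, and they are called early and late below. The late libraries were shallower, with a median of 2035310 UMIs against 3721261. A list of 14 environmental stress genes summed to 2709 to 6180 counts per 1000000 UMIs (CPM, scaled by TMM) in the early libraries and to 486 to 3826 in the late ones. The 4 α-specific genes summed to 486 to 4944 CPM over all libraries and the 6 a-specific genes to 23.3 to 126 CPM, which is the pattern of MATα cells. A160P had the lowest α-specific sums, 486 to 839 CPM. STE12 itself averaged 155 ± 23.5 CPM in wild type (SD, n = 5), 215 ± 44.98 in S158H, 331 ± 84.3 in K150I, 360 ± 83.3 in K150A, 368 ± 73.9 in K146D, 452 ± 178 in K152L and 565 ± 164 in A160P. URA3 had 134 to 342 UMIs in the 4 late K146D and S158H libraries, 28 to 56 in the 5 A160P libraries, 41 to 52 in the 3 early S158H libraries and 0 in the 6 late K150A, K150I and K152L libraries, while 1 of 5 wild-type libraries held 1 UMI. In replicates 1 to 3, URA3 had 35, 36 and 14 UMIs in K150A, 22, 18 and 12 in K152L and 7, 6 and 2 in K150I. It had 0 in each early K146D library. The part of stress genes, STE12 level, URA3 and depth in the values below was not tested. The labels do not say whether replicates were separate cultures, so p-values measure the spread between these libraries.

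Transcript levels were described first for the phosphate transporters. PHO84, the high-affinity proton-coupled phosphate transporter (YML123C, chromosome XIII, 24037 to 25800, minus strand, genome build R64), was measured at 94.4, 88.8, 68.1, 309 and 292 CPM in wild-type replicates 1 to 5. Both late wild-type libraries lay far above the 3 early ones. A160P had 204, 200, 195, 647 and 535 CPM, above wild type in each replicate of the same number. K152L, the hyper-invasive variant that resembled A160P most at this gene, had 211, 206, 195, 381 and 375 CPM.

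The other variants did not share the high late level of PHO84. K150A went the opposite way, with 203, 194 and 169 CPM in the early replicates and 70.3 and 73.9 CPM in the late ones. K150I had 174, 165, 150, 176 and 145 CPM, and K146D had 194, 188, 142, 218 and 141 CPM. Early and late libraries overlapped in both of these variants. S158H was the flattest, at 114, 118, 110, 132 and 117 CPM. The order of the genotypes differed between the replicate groups. In the early replicates every variant had a higher mean than wild type, from 1.36 times in S158H to 2.44 times in K152L. In the late replicates A160P (1.96 times) and K152L (1.26 times) were above wild type, and K150A (0.240 times), S158H (0.413 times), K150I (0.533 times) and K146D (0.596 times) were below it. The fold in the early replicates belongs to the choice of PHO84 and is given as a description.

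**Figure D1:**
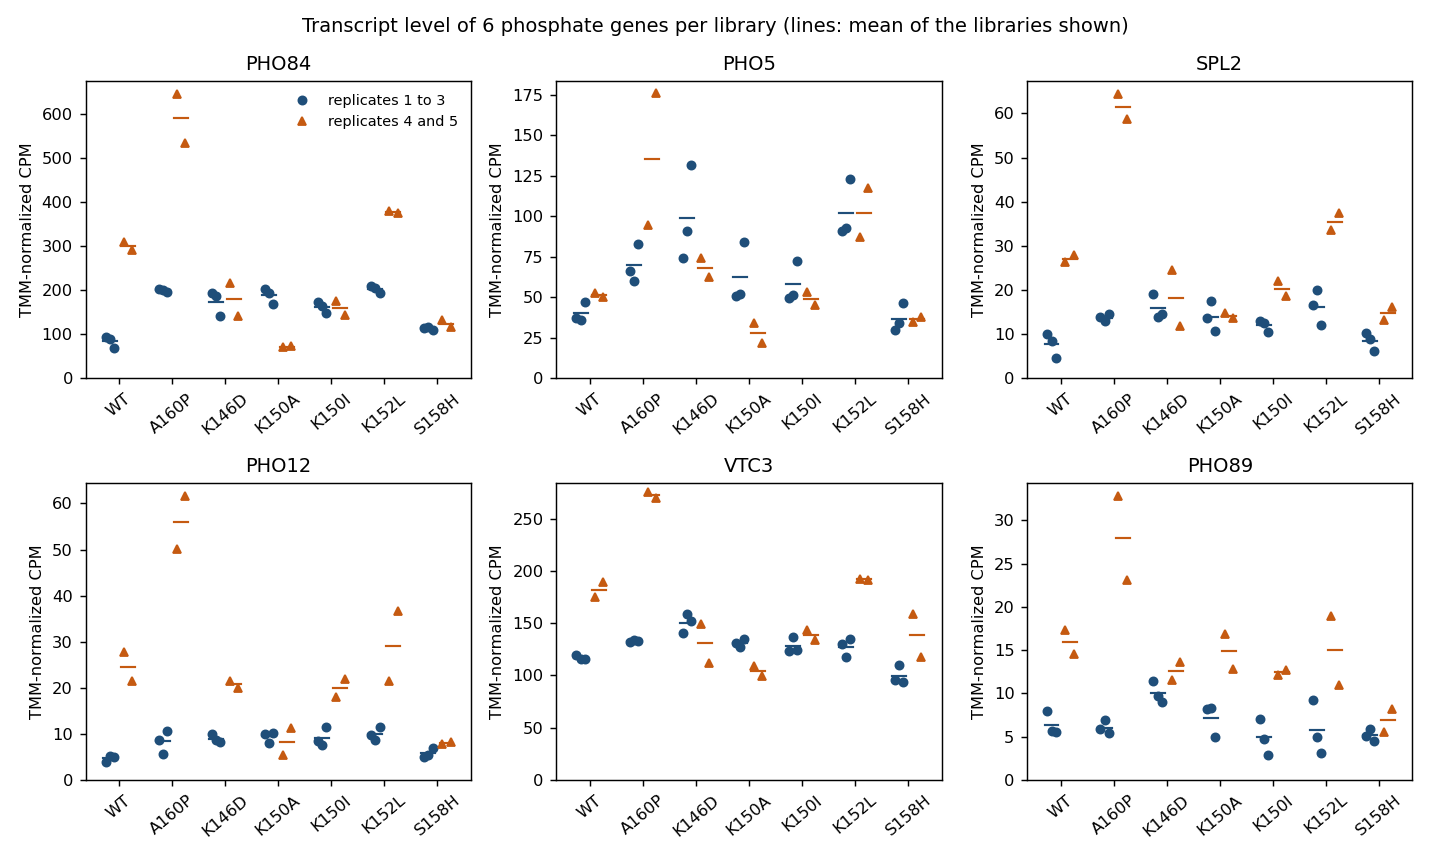
TMM-normalized CPM (y axis) of PHO84, PHO5, SPL2, PHO12, VTC3 and PHO89 for each Ste12 form (x axis), with 1 point per library, circles for replicates 1 to 3, triangles for replicates 4 and 5, and a line at each mean. The late triangles stand above the early circles in wild type and A160P in all 6 panels, whereas PHO84 in K150A stands at 70.3 and 73.9 CPM in the late replicates, below its early replicates.

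PHO89, the sodium-coupled phosphate transporter (YBR296C, chromosome II, 796798 to 798522, minus strand), was measured at 7.99, 5.60, 5.49, 17.3 and 14.5 CPM in wild type. In A160P the corresponding values were 5.84, 6.87, 5.46, 32.8 and 23.1 CPM. The late libraries again lay above the early ones, and in this gene the early A160P and wild-type libraries overlapped. S158H had the narrowest range, 4.48 to 8.25 CPM. These levels rest on 10 to 74 UMIs per library over all genotypes.

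The secreted acid phosphatase PHO5 (YBR093C, chromosome II, 429548 to 430951, minus strand), the classic reporter of the pathway, separated the genotypes in another way. Wild type had 37.4, 36.0, 47.2, 52.5 and 50.0 CPM. A160P had 66.5, 59.8, 82.8, 95.0 and 176 CPM, every library above every wild-type library. K152L had 91.1, 92.6, 123, 87.0 and 117 CPM and K146D 74.2, 91.3, 132, 74.1 and 62.8 CPM, and neither overlapped wild type.

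Among the mating-competent variants PHO5 lay nearer to wild type. K150I had 49.4, 51.7, 72.7, 53.2 and 45.3 CPM and K150A had 51.1, 52.3, 84.4, 34.3 and 22.0 CPM. The 3 early K150A libraries stood above the late ones. S158H had 29.7, 34.1, 46.3, 34.7 and 38.1 CPM and overlapped wild type. By mean the order ran from K152L (102 ± 16.8 CPM, SD, n = 5) through A160P (96.0 ± 46.7), K146D (86.9 ± 27.2), K150I (54.5 ± 10.6), K150A (48.8 ± 23.5) and wild type (44.6 ± 7.49) to S158H (36.6 ± 6.21). Libraries of all neighbours in this order overlapped, those of K146D and K150I only through K150I replicate 3.

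PHO3, the constitutive acid phosphatase that is repressed by thiamine, lies next to PHO5 on the same strand (YBR092C, 427698 to 429101) and is closely related to it in sequence. Its level ranged from 104 CPM in a late K152L library to 254 CPM in a late K150I library, and the genotypes overlapped. Wild type ranged from 124 to 238 CPM. When PHO3 and PHO5 counts were summed, the log2 fold change of the sum was 0.11 in A160P, 0.23 in K152L and 0.41 in K146D, and PHO3 had more UMIs than PHO5 in 35 of 35 libraries. Reads shared by the 2 copies could have been assigned to either, and how such reads were treated was not given in the sources used here.

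PHO11 and PHO12, a pair of nearly identical secreted acid phosphatase genes near chromosome ends (YAR071W, chromosome I, 225460 to 226863, and YHR215W, chromosome VIII, 552099 to 553502, both plus strand), carry the same uncertainty. PHO12 was measured at 3.99, 5.20, 4.94, 27.7 and 21.5 CPM in wild type. A160P had 8.64, 5.73, 10.7, 50.2 and 61.6 CPM. S158H had 5.04, 5.37, 6.88, 7.72 and 8.25 CPM. The late mean was 5.22 times the early mean in wild type and 6.68 times in A160P, against 1.39 times in S158H and 0.881 times in K150A. PHO11 was the scarcest member, with 3 to 42 UMIs per library, and had 1.14, 2.80, 3.29, 9.38 and 5.50 CPM in wild type.

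SPL2, a regulator that lowers low-affinity phosphate uptake (YHR136C, chromosome VIII, 374654 to 375100, minus strand), followed PHO84. It had 9.99, 8.40, 4.67, 26.3 and 28.0 CPM in wild type, and 13.8, 12.9, 14.6, 64.4 and 58.8 CPM in A160P. In K150A it stayed between 10.6 and 17.5 CPM, and early and late libraries overlapped. VTC3, a subunit of the vacuolar transporter chaperone that makes polyphosphate (YPL019C, chromosome XVI, 514511 to 517018, minus strand), moved over a smaller range. Its values were 120, 116, 116, 175 and 189 CPM in wild type, 132, 134, 133, 275 and 269 CPM in A160P and 131, 127, 135, 109 and 99.3 CPM in K150A. The late K150A libraries lay below the early ones and the late A160P libraries above.

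PHO8, the vacuolar alkaline phosphatase (YDR481C, chromosome IV, 1418550 to 1420250, minus strand), was the member with the opposite pattern. Its late mean was below its early mean in all 7 genotypes, from 0.339 times in K150A to 0.797 times in A160P. In wild type it averaged 21.1 CPM in the early and 13.6 CPM in the late replicates. Late libraries that all exceeded all early ones were found for 7 of 9 members in wild type, 7 in A160P, 6 in K152L, 5 in S158H, 4 in K146D, 3 in K150A and 3 in K150I. Over all 6139 genes tested the percentage was 22.6 in wild type, 27.2 in A160P, 25.4 in K152L and 25 in S158H, and it was 30.1 in K146D, 29.6 in K150A and 24.9 in K150I. Late libraries all below all early ones were found for 4 members in K150A (PHO5, PHO84, PHO8 and VTC3) and 2 in K146D (PHO5 and PHO8). A160P had 0 such members, and the other genotypes had PHO8 alone. Over all genes tested that percentage ran from 25.1 in K152L to 32.5 in K146D, with 29.6 in K150A. The replicate groups were themselves seen in these data, so these counts are given without a test.

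**Figure D2:**
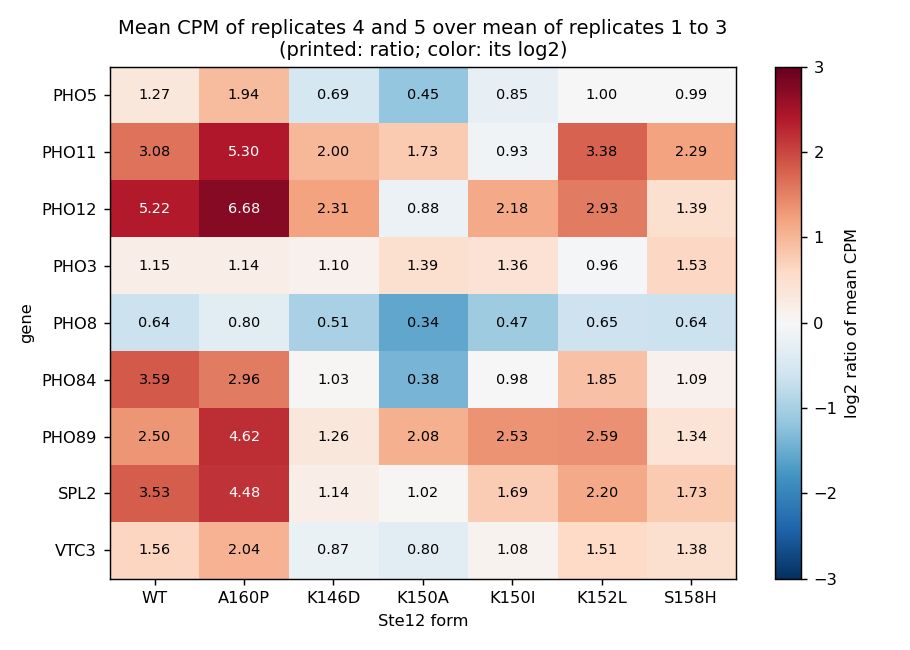
Ratio of the mean CPM of replicates 4 and 5 to that of replicates 1 to 3 for each member (rows) and Ste12 form (columns), printed in each cell and colored by its log2. Ratios above 1 fill the wild-type, A160P and K152L columns for PHO11, PHO12, PHO84, PHO89, SPL2 and VTC3, PHO84 reads 3.59 in wild type and 0.38 in K150A, and PHO8 is below 1 in every column.

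Calls against wild type were made by edgeR's quasi-likelihood test with Benjamini-Hochberg adjustment over all genes tested, at an adjusted p of 0.05. For the 5 variants that entered the choice of members the counts are descriptions. PHO5 passed in A160P (log2 fold change 1.10, SE 0.27) and in K152L (1.19, SE 0.27), and no other member passed in any of the 5. Of all genes tested, 0.928% were called for A160P, 0.896% for K152L, 0.7% for K146D, 0.586% for K150A and 0.0652% for K150I. The call of PHO5 depended on single libraries. It was lost in A160P without A160P replicate 4 (edgeR adjusted p = 0.0555) or 5 (0.252) and without wild-type replicate 1 (0.118), 2 (0.113), 3 (0.0687) or 5 (0.0578). In K152L it was lost without K152L replicate 3 (0.0526) or wild-type replicate 1 (0.0576) or 2 (0.0617). With the replicate number as a block, 2 members were called in A160P, PHO5 and SPL2, and PHO5 was called in K146D as well. In experiment 1 alone, with 2 libraries per genotype, PHO84 was called in all 5 variants. Those libraries are among the early ones used to choose PHO84. The percentages above belong to the fit of 35 libraries without a block and not to these alternatives.

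S158H against wild type did not enter the choice of members and was tested. None of the 9 members was called, with 8 of 9 log2 fold changes below 0 and a median of -0.47 against -0.005 over all genes tested. The percentage of all genes called was 0, with 179 genes at an unadjusted p under 0.05, none of them a member, and DESeq2 called 2 genes and 0 members. PHO84 had a log2 fold change of -0.53 (SE 0.38), PHO12 of -0.89 (SE 0.61), SPL2 of -0.47 (SE 0.47), PHO5 of -0.29 (SE 0.27) and PHO3 of -0.15 (SE 0.20). The early and late replicates had opposite signs for PHO84, PHO12, SPL2 and PHO3, and PHO5 was below wild type in both. In experiment 1 alone 2 members were called, PHO84 with 0.33 (edgeR adjusted p = 0.0321) and PHO3 with -0.46 (edgeR adjusted p = 0.011). The wild-type libraries of experiment 1 are among those against which PHO84 was chosen, so its call there is no independent support.

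The replicate groups were then fitted apart, a choice made after the levels were seen. In replicates 1 to 3 the S158H fit called 126 of 6002 genes (2.1%) and no member, and PHO84 was at 0.44 (SE 0.12, edgeR adjusted p = 0.0648, DESeq2 adjusted p = 0.025). In replicates 4 and 5 it called 0 of 5909 genes (0%), with 114 at an unadjusted p under 0.05, and DESeq2 called 1. The member nearest to a call was PHO84 at -1.28 (SE 0.21, edgeR adjusted p = 0.475), which was the gene DESeq2 called. A further 5 members, PHO11, PHO12, PHO89, SPL2 and VTC3, had negative values with an unadjusted edgeR p under 0.05, PHO12 the largest in size at -1.62 (SE 0.35). The difference between the 2 replicate groups was tested as an interaction in the fit of all 35 libraries. It was called for 3 of 6264 genes (0.0479%), and PHO84 was among them, at -1.73 (SE 0.22, edgeR adjusted p = 8.75e-05). All 3 early S158H libraries were above all 3 early wild-type libraries, and both late S158H libraries were below both late wild-type libraries. PHO12, at -1.92 (SE 0.43), did not pass (edgeR adjusted p = 0.115). The interaction and the fit of replicates 1 to 3 use the wild-type libraries against which PHO84 was chosen. Their PHO84 p-values and calls are therefore no independent support. URA3 had 41 to 52 UMIs in the early S158H libraries and 279 and 342 in the late ones, so that all S158H libraries hold it. Summed stress genes were at 4396 to 6180 CPM in early and 1632 to 2457 CPM in late S158H libraries, against 2709 to 4065 and 486 to 1364 CPM in wild type. The part of both in the PHO84 value was not tested.

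**Figure D3:**
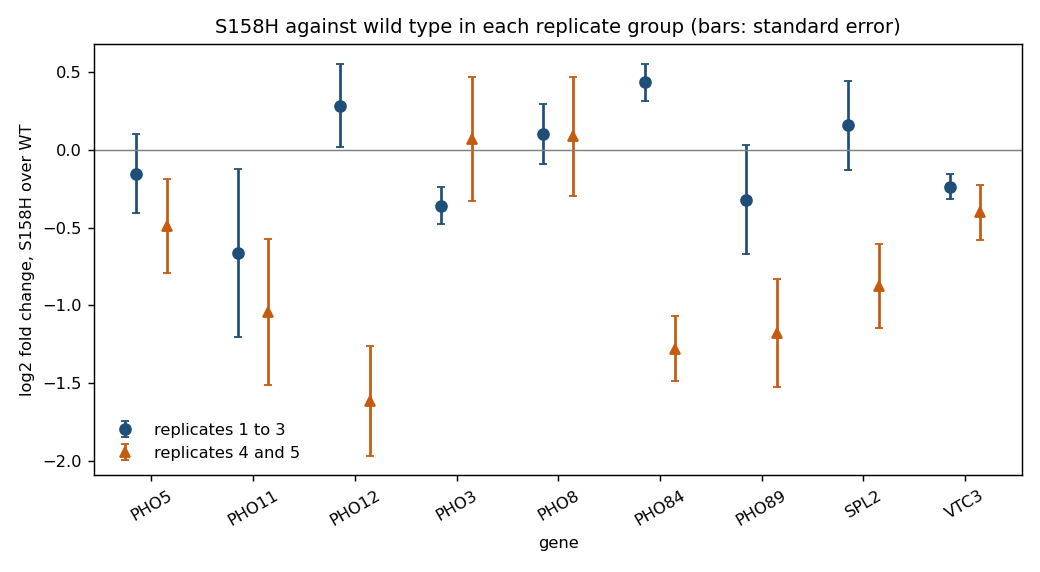
Log2 fold change of S158H over wild type (y axis) for the 9 members (x axis) in replicates 1 to 3 (circles) and in replicates 4 and 5 (triangles), with bars of 1 standard error. PHO84 sits at 0.44 in the early and -1.28 in the late replicates, and PHO12 at 0.29 and -1.62, while PHO8 sits at 0.10 and 0.09.

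For the hyper-invasive variants replicates 4 and 5 were also fitted alone. PHO84 was chosen for its early replicates after the late ones had been seen, so the late values are descriptions too and their calls are no independent support. In K150A the log2 fold change of PHO84 was -2.07 (SE 0.21), at 70.3 and 73.9 CPM against 309 and 292 CPM in wild type. It was 1 of 2 genes that passed among 5909 (0.0338%). DESeq2 called 22 genes and 2 members, PHO84 and VTC3. It no longer passed with edgeR without either K150A library (adjusted p = 0.158 without replicate 4 and 0.119 without replicate 5), while the log2 fold change stayed between -2.11 and -2.03 over the 4 left-out libraries. Without the late K146D and S158H libraries, which hold the most URA3 transcripts, a fit added after the data were seen, PHO84 still passed in K150A. The late K150A and late wild-type libraries themselves held 0 URA3 UMIs, so that fit does not test the part of URA3. Summed stress genes were at 2744 to 3826 CPM in the late K150A libraries and at 486 to 1364 CPM in the late wild-type libraries, and their part in the PHO84 value was not tested.

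No member was called in the late replicates of the other 3 hyper-invasive variants. PHO84 had a log2 fold change of -0.91 (SE 0.21) in K150I, -0.74 (SE 0.21) in K146D and 0.31 (SE 0.20) in K152L. The genes called were 0 of 5909 in K150I (0%), 11 in K146D (0.186%) and 8 in K152L (0.135%). In K150I, 131 genes, 3 of them members, had an unadjusted p under 0.05 and DESeq2 called 1 gene. The medians over the 9 members were -0.88 in K150A, -0.36 in K150I, -0.29 in K146D and 0.22 in K152L, beside medians between -0.02 and -0.004 over all genes tested. All of these comparisons share the same 2 late wild-type libraries.

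K150A and K150I change the same residue to different amino acids, and K146D and K152L share a phenotype, so each pair was compared directly over the 35 libraries. Neither comparison called a member or any other gene (0% of 6139). Unadjusted p-values under 0.05 were found for 113 and 170 genes, 0 and 1 of them members, and DESeq2 called 3 and 2 genes and no member. Between K150A and K150I, PHO84 differed by -0.18 (SE 0.38) and PHO5 by -0.15 (SE 0.27), and both were above 0 in experiment 1 alone (0.23 and 0.04). The pooled PHO84 value covers early means of 189 CPM in K150A and 163 in K150I, and late means of 72.1 and 161 CPM. That change with replicate group was not tested between the 2 variants. Between K146D and K152L, PHO84 differed by -0.62 (SE 0.38) and PHO5 by -0.22 (SE 0.26). PHO3 had the lowest unadjusted p of that pair at 0.41 (SE 0.20), and in experiment 1 alone it was the member called.

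The labels give the experiment, and it was tested in the 15 libraries of wild type, A160P and S158H with genotype in the fit. PHO5 rose in experiment 2, by 0.57 on the log2 scale (SE 0.16, edgeR adjusted p = 0.0451), and PHO12 by 1.73 (SE 0.48, edgeR adjusted p = 0.0443), 2 of 9 members next to 461 of 5929 genes called (7.78%). At an unadjusted p under 0.05 there were 8 of 9 members and 34% of all genes, and DESeq2 called 5 members and 1056 of the 5929 genes. The median of the members was 0.83 against 0.02 over all genes tested. PHO5 was chosen for its level in A160P, and the A160P and wild-type libraries are part of this fit, so its call is no independent support. The calls were also not stable. Leaving out single libraries gave 0 to 7 called members and 17 to 1501 called genes, with 0 members for 11 of the 15 libraries (each of replicates 1, 2 and 4, and replicate 5 of wild type and S158H). Without A160P replicate 5 there was 1, PHO5. Without replicate 3 of S158H, A160P or wild type there were 4, 6 and 7. Replicate 3 belongs to experiment 2 by its label. Its PHO5 level was above replicates 1 and 2 in 7 of 7 genotypes, whereas its PHO84 and PHO89 levels were below both in 7 of 7.

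The members that varied together were found by Pearson's r over the 35 libraries, on log2(CPM + 1) after the mean of each replicate number was subtracted. PHO84 was most like PHO12 (r = 0.916, and 0.800 without the subtraction), VTC1 (0.911 and 0.781) and SPL2 (0.907 and 0.853). SPL2 was most like PHO84, VTC1 (0.879 and 0.852) and PHO12 (0.846 and 0.858). PHO5 was most like VTC1 (0.877 and 0.606), VTC2 (0.839 and 0.822) and SPL2 (0.832 and 0.504). VTC1 and VTC2 encode further subunits of the polyphosphate polymerase complex. PHO5 and its neighbour PHO3 had r = -0.10, and -0.05 without the subtraction. The libraries share genotypes, experiments and depth, so these coefficients are descriptions.

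Genes of the pathway outside the 9 were read from lists of 12 other PHO targets, 11 signalling genes and regulators, and 9 genes of low-affinity transport and polyphosphate. In the comparisons with wild type over 35 libraries, none of the 11 regulators, among them PHO4, PHO81, PHO80 and PHO85, was called in any variant. PPX1, a cytosolic exopolyphosphatase that breaks polyphosphate down, fell by 0.45 on the log2 scale in A160P (SE 0.09, edgeR adjusted p = 0.00289) and by 0.40 in K152L (SE 0.09, edgeR adjusted p = 0.0106), 1 of 9 genes of its list in each. PHM7 rose by 1.04 in K150A (SE 0.22, edgeR adjusted p = 0.0119), 1 of 12 other PHO targets. In experiment 2, VTC1 (0.58, SE 0.14) and VTC4 (0.35, SE 0.10) rose together with PHO88 (0.29, SE 0.07), and GPP2, a glycerol phosphatase, fell by 1.07 (SE 0.15). Leaving out single libraries kept the GPP2 call, while that of VTC1 was lost for 11 of the 15 left-out libraries, that of VTC4 for 12 and that of PHO88 for 8, VTC4 also without the filter on low counts (edgeR adjusted p = 0.0515).

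Calling cards gave a readout that the choice of members did not use. A transposase fused to Ste12 inserts a transposon near the sites that the fusion binds, each insertion is counted by its UMI, and the authors called peaks with MACS2. The 14 libraries held 5904 to 12778 UMIs in 2188 peaks. For 6002 genes a window was taken that reached 1000 bp upstream and 200 bp downstream of the coding start. A gene was said to have a site in a genotype where a single peak in its window held at least 3 UMIs in both replicates. PHO8 and VTC3 had no peak in their windows, and the peak of PHO3 held 3 UMIs over all libraries.

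S158H had sites at 4 of 9 members, PHO5, PHO11, PHO12 and PHO84, against 3.1% of all windows. The peak of PHO5 (chromosome II, 431271 to 431371, 320 to 420 bp 5′ of the coding start) held 10 and 9 UMIs in the S158H replicates, 1 and 0 in wild type and 0 or 1 in every other library. The peak of PHO11 (chromosome I, 224984 to 225084, 376 to 476 bp) held 19 and 11 in S158H, 2 and 3 in K150A, 2 and 0 in K150I and 0 elsewhere. The peak of PHO12 (chromosome VIII, 551621 to 551721, 378 to 478 bp) held 11 and 8 in S158H and 1 UMI in all other libraries together. The 2 peaks lie at nearly the same distance from the coding starts of nearly identical genes, and insertions could have been placed at either copy. The peak of PHO5 is also within the window of PBY1.

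At PHO84 the position of the insertions differed between S158H and wild type, as the UMIs of each peak, added after the data were seen, showed. The nearer peak (chromosome XIII, 26192 to 26292, 392 to 492 bp 5′) held 13 and 13 UMIs in S158H, 0 and 0 in wild type and 1 UMI in the rest. The farther peak (26661 to 26768, 861 to 968 bp 5′) held 20 and 7 UMIs in wild type, 0 and 0 in S158H and at most 1 in any other library. With a floor of 3 UMIs over both libraries of a group, the nearer peak was at least 13.7-fold higher in S158H and the farther peak at least 5.69-fold higher in wild type. Floors and intervals cover counting error only. Both peaks are also within the windows of GTR1 and YML122C.

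**Figure D4:**
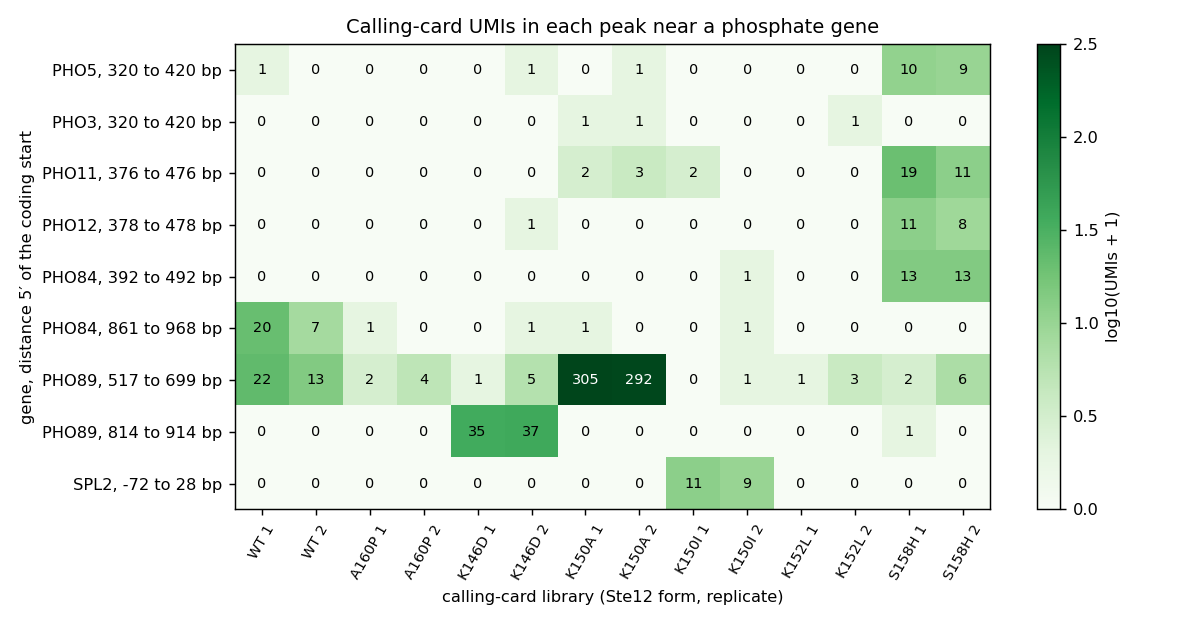
Calling-card UMIs, printed and colored by log10(UMIs + 1), for each peak in a member's window (rows, with the distance 5′ of the coding start in bp) in each library (columns). S158H libraries hold 8 to 19 UMIs at PHO5, PHO11, PHO12 and the nearer PHO84 peak, wild-type libraries 20 and 7 at the farther PHO84 peak, and K150A libraries 305 and 292 at PHO89.

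PHO89 had the most insertions of any member. Its peak at 517 to 699 bp 5′ (chromosome II, 799039 to 799221) held 305 and 292 UMIs in K150A, 3.45 and 3.35% of those libraries. Wild type had 22 and 13 there, so that K150A was 18.4-fold higher per UMI sequenced (95% counting interval 13.1 to 26.6). K146D used a separate peak, 814 to 914 bp 5′ (799336 to 799436), with 35 and 37 UMIs, where wild type had none and K146D was at least 26.1-fold higher. SPL2 had a peak over its coding start (chromosome VIII, 375028 to 375128) in K150I alone among the 7 genotypes, with 11 and 9 UMIs and 0 in the other 12 libraries, and that peak is shared with the windows of ARO9 and YCK1.

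By the same definition wild type had sites at 2 members, PHO84 and PHO89, beside 4.6% of all windows. K146D (5.11%) and K150A (4.23%) had 1, PHO89. K150I (2.58%) had 1, SPL2. A160P (1.68%) and K152L (2.1%) had 0. The windows were compared with limma on log2(CPM + 100) of UMIs, in the 981 windows where 2 or more libraries reached 3 UMIs, which left 6 members. The 3 members PHO3, PHO8 and VTC3 were not tested. PHO5 and PHO12 passed that filter through S158H alone and SPL2 through K150I alone, and PHO11 reached 3 UMIs outside S158H in 1 library. These members had to be high in those genotypes to be tested, so no p is given for them there and the counts of sites above use every window. In simulated data the test recovered almost no 4-fold change, so a window that was not called may still differ.

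In S158H the fold over wild type was at least 10.0 for PHO12 and at least 15.8 for PHO11, and 30.1 for PHO5 (95% counting interval 4.78 to 1249, from 1 wild-type UMI). PHO84 summed over both peaks was not called (log2 difference 0.66, SE 0.65, limma adjusted p = 0.489), where 41.5% of windows were called in either direction. Without either S158H library PHO5 and PHO12 no longer passed the filter.

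The same test called PHO84 lower in the other 5 variants and PHO89 lower in A160P, K150I and K152L. PHO84 had 27 UMIs in wild type and at most 2 in each of those variants, with log2 differences from -3.84 in K152L to -3.02 in K150I. PHO89 had log2 differences of -1.98 (SE 0.49) in A160P, -2.65 (SE 0.49) in K152L and -3.81 (SE 0.49) in K150I, and was higher in K150A at 4.09 (SE 0.49). Windows called in either direction made up 40.3% for A160P, 37% for K152L, 48.9% for K146D, 42.9% for K150A and 39.9% for K150I. In A160P the PHO89 call was lost without A160P replicate 1 or wild-type replicate 2, leaving PHO84. PHO11 was higher in K150A by limma (adjusted p = 0.0199), on 2 and 3 UMIs, but this call was lost without any 1 of the 4 K150A and wild-type libraries (adjusted p = 0.0516 to 0.114) and with edgeR (adjusted p = 0.0635).

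Binding and RNA can be set side by side for the members. The 4 genes with an S158H site had RNA log2 fold changes over wild type of -0.29 (PHO5), -0.93 (PHO11), -0.89 (PHO12) and -0.53 (PHO84) in S158H, none of them called. By replicate group PHO84 was at 0.44 in the early and -1.28 in the late replicates and PHO12 at 0.29 and -1.62, while PHO5 (-0.15 and -0.49) and PHO11 (-0.66 and -1.04) were below 0 in both. PHO89, with 597 UMIs in K150A and 35 in wild type, had an RNA log2 fold change of 0.01 (SE 0.49) in K150A, at 1.12 times wild type in the early and 0.935 times in the late replicates. SPL2, with an insertion peak in K150I, had 0.01 (SE 0.46) there, at 1.57 times wild type in the early and 0.749 times in the late replicates. A160P and K152L, the variants in which PHO5 RNA was called, had 0 UMIs in the PHO5 window in both replicates, which at the floor of 3 UMIs over a group of 13985 and 16643 UMIs is a limit of detection and not an absence. Of the other lists, PPX1 had 27 and 9 UMIs in wild type and at most 1 in every variant library, PHM7 had 452 and 384 in K146D and 0 and 0 in K150A, and GDE1, a glycerophosphodiesterase gene, had 22 and 25 in K150A.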

How the data were processed

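RNA-seq counts were deposited by the authors as whole UMI counts per gene. Per the labels, cDNA was primed with oligo-dT, and the processing notes name bcl2fastq, Trim Galore 0.4.1, STAR, MACS2 and build R64. The calling-card peak table was deposited by the authors on a natural log scale, as values that gave whole UMIs for 30632 of 30632 entries (within 0.001) after they were scaled back. URA3 was left out, as in the study. Counts were tested with edgeR 4.0.16 (quasi-likelihood, TMM, R 4.3.3) in 1 fit of 35 libraries with 1 coefficient per genotype, after the default filter on low counts. Alternatives used DESeq2 1.42.0, and windows were tested with limma 3.58.1. Gene names were those of the files, and positions came from RefSeq's R64 table. All 9 members are named, genes of the other phosphate lists are named where called, and 3 similar genes are given for PHO5, PHO84 and SPL2. Called genes of the stress, mating-type and thiamine lists are not named. The members and lists were chosen with earlier results of these data known. The tests were checked on simulated data with 200 changed genes. For S158H over all replicates (6060 genes), edgeR recovered 52 of 52 lower and 45 of 45 higher 4-fold changes, and 31 of 51 and 34 of 49 2-fold changes. For K150A in replicates 4 and 5 (5864 genes) it recovered 51 of 56 and 45 of 48 4-fold changes, and 11 of 44 and 20 of 51 2-fold changes. These RNA simulations gave all genes the same spread between replicates and no difference between early and late libraries. Members with a wide SE in S158H, such as PHO84 (0.38) and PHO12 (0.61), could therefore be recovered less often than this. For S158H binding, limma recovered 2 of 92 lower and 0 of 80 higher 4-fold changes placed in any tested window (841 windows). An easier simulation was added after that result, with less spread and 10-fold changes in windows with a mean of 3 or more UMIs (799 windows), and there it recovered 81 of 110 and 89 of 90, with 9 false calls among 599 unchanged windows. The test is therefore weak for windows with few UMIs. Same-numbered libraries deviated together from their genotype means (30 of 30 pairs, r = 0.192 to 0.763, median 0.576), so the replicate number was used as a block in an alternative. With 2 calling-card libraries and 5 RNA-seq libraries per genotype, the spread between libraries limits precision, and so do low counts at peaks with few UMIs.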

Additional observations from a re-analysis of the deposited data

Results flagged for a closer look

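PHO84 in S158H against wild type differed between the replicate groups, with an interaction of -1.73 on the log2 scale (edgeR adjusted p = 8.75e-05, late against early). PHO84 was chosen against these same wild-type libraries, and the grouping after the data were seen. The p-value is therefore no independent support. URA3 had 41 to 52 UMIs in the early S158H libraries and 279 and 342 in the late ones. The PHO5 level of 72.7 CPM in K150I replicate 3 stood apart from the other 4 K150I libraries, at a gap of 0.71 of the group's range. This was 1 of 63 groups of 5 libraries examined, and chance marks about 1 group in 20 when libraries are independent. Same-numbered libraries deviated together here, and PHO5 in replicate 3 was above replicates 1 and 2 in 7 of 7 genotypes.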

How the results depend on the processing

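Single libraries and the replicate groups decided many calls, and the cause was not tested. Alternatives by replicate group were chosen after the data were seen. For most alternatives the share of all genes or windows called is not given, so the numbers of called members show only what moved. Over the left-out replicates the number of called members ran from 0 to 1 in A160P and in K152L, from 0 to 1 in K150A in replicates 4 and 5, and from 0 to 7 for experiment 2. The range was 1 to 2 for binding in A160P and in K146D, 1 to 3 in S158H and 2 to 3 in K150I, and it was 2 in K150A, against 3 with all libraries, whichever of the 4 libraries was left out. Binding counts include PHO5, PHO11 and PHO12 in S158H and SPL2 in K150I, which entered the test mainly through those genotypes. The log2 fold change of PHO5 between K150A and K150I ran from -0.43 to 0.036, and that of PHO3 in S158H from -0.36 to 0.0058. With the replicate number as a block, the called members were 2 in A160P and 1 in K146D by RNA-seq, and PHO89 was added by binding in K146D (2 members) and in S158H (4). The block changed no other call of a member. DESeq2 called 1 member in K146D, 2 in K150A in replicates 4 and 5 and 5 for experiment 2, among 57, 22 and 1056 called genes. All 35 libraries together also gave 5 for experiment 2. The experiment as a covariate gave 1 in K146D. In experiment 1 alone the number was 2 in A160P, 2 in K146D, 2 in K150A, 1 in K150I, 3 in K152L, 2 in S158H and 1 between K146D and K152L. There PHO84 (0.33), PHO12 (0.20) and SPL2 (0.044) in S158H, and PHO84 (0.23) and PHO5 (0.043) between K150A and K150I, turned positive. In experiment 2 alone the number was 0 in A160P and in K152L, and PHO3 in S158H was at 0.012. Summed paralog counts gave 0 members in A160P and in K152L, and PHO5 with PHO3 at 0.038 between K150A and K150I and at 0.18 between K146D and K152L. A fit of A160P with wild type alone gave 0. In S158H, replicates 1 to 3 alone gave PHO84 0.44, PHO12 0.29 and SPL2 0.16, and replicates 4 and 5 alone gave PHO3 0.070. For binding, a pseudocount of 1000 gave 2 members in K146D and 5 in S158H, and edgeR gave 2 in K146D, where it called 448 of 981 windows. A window of 500 bp, which leaves out the farther PHO84 peak and both PHO89 peaks, gave 0 in A160P, 0 in K146D, 0 in K152L, 1 in K150A and 1 in K150I, with PHO84 at 0.52 in K150I. Binding libraries of the same number did not deviate together (r = -0.026 to 0.091). Values at PHO11 rest on 3 to 42 UMIs per library, and most member peaks on fewer than 100 UMIs in all, which limits what could be seen there.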
